A study of Mus musculus with 9 samples.

Results

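Interleukins and colony-stimulating factors are secreted proteins with which injured tissue calls in, feeds and restrains immune cells. The transcripts of 10 such genes were read here in mouse primary renal tubular epithelial cells: Il1a, Il1b and Il33 of the IL-1 family, Il6 and Lif of the IL-6 family, Il7 and Il15 of the family that shares the common gamma chain, and the colony-stimulating factors Csf1, Csf2 and Il34. The genes were matched by symbol, from a list drawn up with earlier results of these data known, and each was found once among the 31167 genes of the expression table. Levels are in FPKM, that is, fragments counted over each kilobase of exon and scaled to library size, so those of different genes are compared per length.

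There were 9 RNA-Seq libraries in 3 groups of 3, all from cells of C57BL/6 mouse kidney grown to partial confluence before treatment. Sham is the control group. H/R cells were kept without glucose at 1.0% oxygen for 6 h and then returned to complete medium for 18 h, a culture model of ischemia and reperfusion. EGR1OV cells were transfected, with the reagent EndoFectin Max, with a plasmid from which the CMV promoter drives the transcription factor Egr1, which is active in most cell types. No empty-vector group was among those compared, so the effects of Egr1 and of transfected DNA cannot be told apart. No source used here says whether the libraries of a group came from separate cultures or animals, and p-values then measure only the spread between these samples, which may be technical.

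IL-1α and IL-1β signal through the IL-1 receptor and Myd88 and start inflammatory gene expression, and IL-33 does so through its own receptor ST2. IL-6 and LIF signal through receptors that contain gp130, and IL-7 and IL-15 sustain lymphocytes. CSF-1 and IL-34 are both ligands of the receptor Csf1r, on which macrophages depend, and injured kidney tubules are a known source of both. GM-CSF, the product of Csf2, drives granulocytes and macrophages.

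The level of Egr1 was read first, which bears on the EGR1OV label. The H/R label was not checked here. Egr1 stood at 6.40 ± 0.443 FPKM in Sham, 7.88 ± 0.599 after H/R and 42.6 ± 2.84 with the plasmid (mean ± SD of 3 libraries), and reads from the plasmid cannot be told apart from those of the cells' own gene. The epithelial markers Krt8, Krt18, Cdh1, Epcam and Pax8 were present in every library, and the proximal tubule markers Lrp2 and Aqp1 stood at 3.6 ± 0.0824 and 1.3 ± 0.112 FPKM in Sham. Umod was at 0 in all 9 libraries, and Slc34a1 and Slc12a3 had at most 5 reads in any of them. Epithelial markers moved too: of 10 tubule markers tested, 5 fell in EGR1OV (Krt8, Krt18, Lrp2, Aqp1 and Havcr1) and Epcam rose. By the rule given below, 6.51% of all genes tested were called lower in EGR1OV and 9.87% higher. After H/R only Epcam of the 10 was called, and it was higher (76.2 FPKM in Sham, 96.0 after H/R). Beside it, 1.6% of all genes were called higher after H/R and 2.65% lower. The summed level of the 14 tubule markers in the table was 2033 ± 26.6 FPKM in Sham, 1889 ± 39.5 after H/R and 1368 ± 53.6 with the plasmid. Krt8 and Krt18 made up most of this sum, at 1013.5 and 685 FPKM in Sham and 618 and 412 in EGR1OV. The sum thus mainly follows these keratins. Of the others, Cdh1, Epcam, Pax2 and Pax8 had higher means in EGR1OV than in Sham, and Cdh16, Lrp2, Aqp1 and Havcr1 lower ones. The part of tubule markers in the changes of cytokine genes was not tested. The cultures also held transcripts of macrophages and markers of endothelium and of fibroblasts and mesangium. The summed level of 17 leukocyte and macrophage markers was between 163 and 170 FPKM in the Sham libraries, between 139 and 149 after H/R and between 46.6 and 55.2 in EGR1OV. That of 7 endothelial markers was 10.5 ± 0.253, 10.6 ± 0.0858 and 7.62 ± 0.308 FPKM in Sham, H/R and EGR1OV. For 6 fibroblast and mesangial markers it was 29.4 ± 0.767, 34.3 ± 0.645 and 33.1 ± 2.18 FPKM. The part of these cells in the levels of cytokine genes was not tested. Sequencing depth, recovered from the FPKM values, ran from 16183617 to 18384022 reads.

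The promoters of the 3 genes with the largest rise in EGR1OV on the log2(FPKM + 1) scale are shown first, because the plasmid encodes a transcription factor. Each run holds the 250 bases before the RefSeq start of the gene (GRCm38.p6), 5′ to 3′ on the strand of the gene, and capitals mark a match to 1 of 5 short motifs searched on both strands. Il1b lies at chr2:129371140-129371389 (minus strand), Il1a at chr2:129309973-129310222 (minus strand) and Il6 at chr5:30012864-30013113 (plus strand).
Il1b: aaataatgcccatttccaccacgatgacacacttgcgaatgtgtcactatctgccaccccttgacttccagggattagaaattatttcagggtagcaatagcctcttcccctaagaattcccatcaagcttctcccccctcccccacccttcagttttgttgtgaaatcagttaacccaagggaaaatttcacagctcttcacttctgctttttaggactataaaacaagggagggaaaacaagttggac
Il1a: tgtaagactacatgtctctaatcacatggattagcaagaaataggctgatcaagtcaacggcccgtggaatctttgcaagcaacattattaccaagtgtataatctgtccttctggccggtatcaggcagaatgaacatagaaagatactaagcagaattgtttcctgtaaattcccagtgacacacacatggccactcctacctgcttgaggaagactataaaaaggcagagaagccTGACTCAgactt
Il6: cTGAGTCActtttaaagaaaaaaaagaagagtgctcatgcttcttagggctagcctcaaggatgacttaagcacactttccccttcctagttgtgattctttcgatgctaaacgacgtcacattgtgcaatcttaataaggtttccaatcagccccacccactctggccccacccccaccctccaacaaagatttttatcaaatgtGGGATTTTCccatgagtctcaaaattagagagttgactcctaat

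The motifs were GCGNGGGCG for EGR1, GGGNNTTTC for NF-kB, AAANNGAAA for the interferon-stimulated response element, TTCNNNGAA for STAT factors and TGANTCA for AP-1. A promoter was held for 7 of the 10 genes, and none for Il7, Il15 and Il34. The EGR1 letters were in 4.70% of all 32851 promoter windows and in none of the windows of the 7 genes. These letters are strict, and the EGR1 site that the study tested at Sox9 would not match them. The NF-kB letters, in 3.72% of all windows, were 44 to 36 bases before the start of Il6 and, on the other strand, 153 to 145 bases before that of Csf1. The AP-1 letters, in 6.75% of all windows, were 12 to 6 bases before the start of Il1a, 249 to 243 before that of Il6 and 228 to 222 before that of Lif. No window of the 7 genes held the interferon-response letters (9.37% of all windows) or the STAT letters (7.02%), and that of Il1b held none of the 5. A match is a description of letters and not of a bound site, and the absence of one says only that the letters are not in this window. The window of Csf2, on the minus strand, ends at base 54249900, whereas the listed gene starts at 54249667. The bases between were not searched.

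Csf1 and Lif dominated the group of genes at every condition. In Sham their means were 103 ± 0.56 and 36.6 ± 0.747 FPKM, followed by Il34 at 10.8 ± 0.287, Il7 at 2.22 ± 0.189 and Il15 at 1.72 ± 0.238 FPKM. The other 5 genes were each below 1 FPKM in all Sham libraries, and within them Il1a, Il33 and Il1b each overlapped with the next in order (Il33, Il1b and Csf2), while all Il6 values lay below those of Csf2. Il6 rested on 2, 3 and 3 reads per Sham library, at or under the floor of 3 reads. The order in H/R differed in that Il15 stood above Il7, but their ranges overlapped. In EGR1OV, Il1b moved up to the fourth place at 8.48 ± 1.23 FPKM and Il33, at 0.943 ± 0.423, was last.

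**Figure D1:**
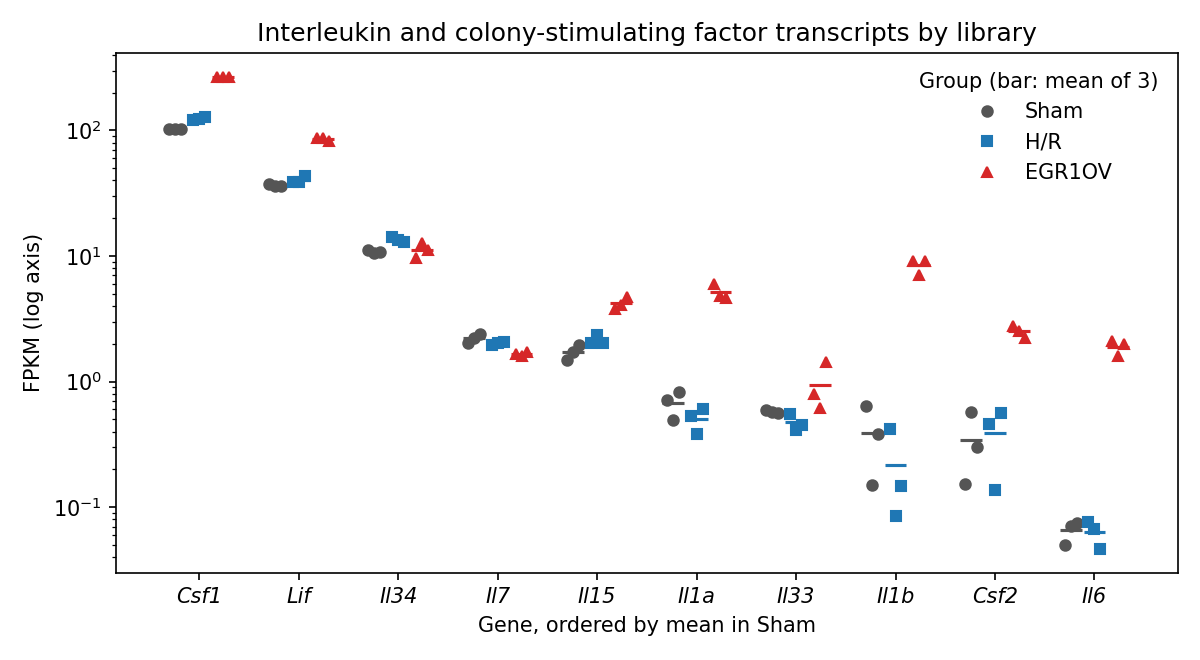
Level of the 10 genes in each of the 9 libraries, as FPKM on a log axis, with 3 points and a bar at their mean for Sham (circles), H/R (squares) and EGR1OV (triangles). The EGR1OV points of Il1a, Il1b, Csf2 and Il6 lie well above both other groups. Those of Il34 lie around the Sham points and below the H/R points.

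Against Sham, 7 of the 10 genes rose in EGR1OV and none fell. A gene was called when the limma adjusted p, over all 13985 genes tested, was under 0.05 and the change on the log2(FPKM + 1) scale was at least 1.3-fold. Of all genes tested, 9.87% were called higher and 6.51% lower by this rule. The median change of the 10 genes was 1.28 on the log2 scale, against 0.02 over all genes. Il1b, Il6 and Csf2 passed the expression filter (an average of 0.5 FPKM or more across all 9 libraries) only through their EGR1OV values and had to differ, so this count is a description and not evidence about the group.

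After H/R, 2 of the 10 genes rose, Csf1 and Il34, and none fell. The threshold here was 1.2-fold, at which 1.6% of all genes were called higher and 2.65% lower. The median change was 0.02 for the 10 genes and -0.03 over all genes. In EGR1OV against H/R, which shares the EGR1OV libraries with the first comparison, the genes called higher were Il1a, Il1b, Il6, Lif, Il15, Csf1 and Csf2, and none was called lower. Il1b, Il6 and Csf2 passed the filter only through EGR1OV and had to differ in this comparison too. In this comparison 11.9% of all genes were called higher and 6.94% lower.

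The balance of higher and lower calls over all genes moved with scaling. Called genes were higher in 60.3% of cases in EGR1OV against Sham, 37.7% in H/R against Sham and 63.2% between EGR1OV and H/R. With quantile normalization these shares were 45.9%, 56.5% and 42.5%, and with median-ratio scaling 55.7%, 58.0% and 52.0%.

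**Figure D2:**
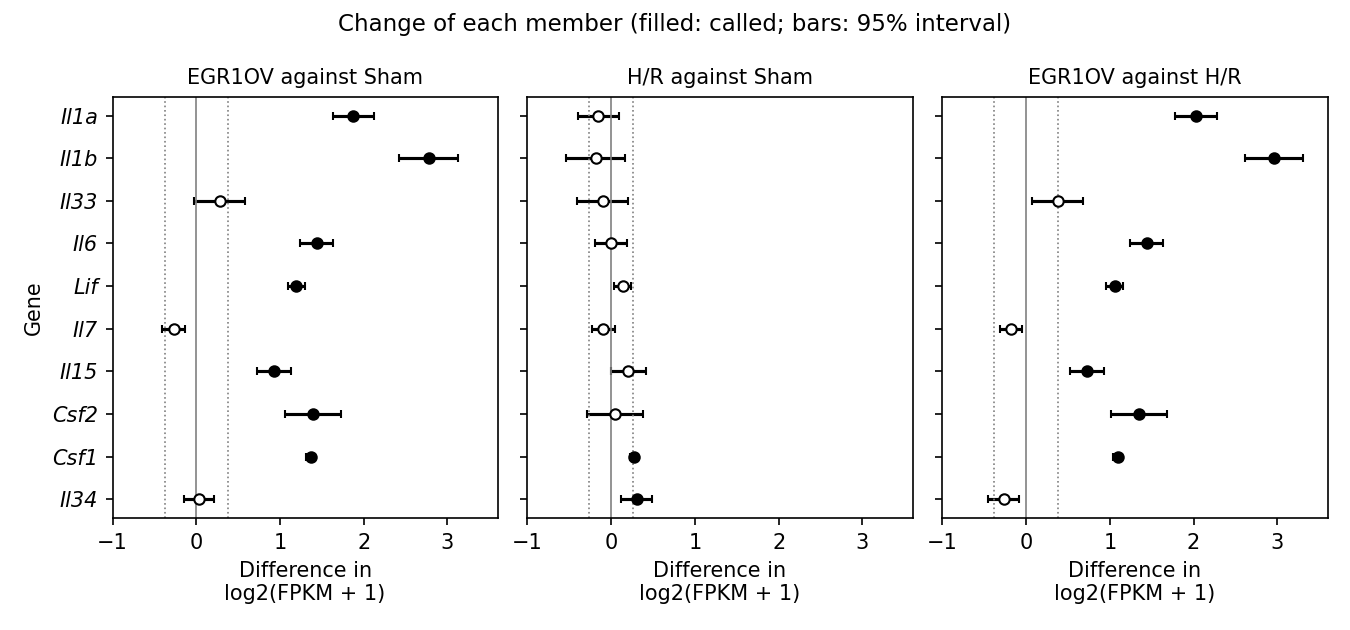
Difference in log2(FPKM + 1) for each gene in the 3 comparisons, with the 95% interval of the limma fit and dotted lines at the fold threshold. Filled points were called: 7 genes in EGR1OV against Sham, 2 after H/R against Sham and 7 in EGR1OV against H/R.

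Il1b and Il1a, of the IL-1 family, rose most on the log2(FPKM + 1) scale, whereas by the ratio of means Il6 came first. Il1b (ENSMUSG00000027398, chromosome 2 from 129364570 to 129371139), the main secreted form of IL-1, was at 0.638, 0.150 and 0.381 FPKM in Sham, 0.421, 0.0856 and 0.148 after H/R, and 9.19, 7.06 and 9.19 in EGR1OV. Sham and H/R overlapped, and every EGR1OV value lay more than 10 times above every other. The EGR1OV mean was 21.8 times that of Sham, and the rise on the log2(FPKM + 1) scale was 2.78 with an SE of 0.155 (limma adjusted p = 6.31e-07). Il1b passed the expression filter only through its EGR1OV values and had to differ, so this p is a description. The Sham values rest on 5 to 20 reads and the EGR1OV values on 220 to 295. The ratio of depth-scaled reads was 22.0, with an exact 95% interval of 15.9 to 31.5 that covers counting error only. Within Sham the coefficient of variation was 62.6%, so the low baseline is known poorly.

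Il1a (ENSMUSG00000027399, chromosome 2 from 129299610 to 129309972), which codes for the IL-1 form released by dying cells, is the neighbour of Il1b, 54.6 kb away. Its values were 0.709, 0.494 and 0.829 FPKM in Sham, 0.532, 0.386 and 0.600 after H/R, and 6.04, 4.84 and 4.64 in EGR1OV. As with Il1b, the Sham and H/R ranges overlapped and EGR1OV stood apart. The rise against Sham was 1.88 ± 0.109 on the log2 scale (SE, limma adjusted p = 8.31e-07), 7.64-fold between means. The ratio of Il1b to Il1a was 0.555 ± 0.309 in Sham and 1.65 ± 0.286 in EGR1OV (SD, n = 3), without overlap and with an exact two-sided permutation p of 0.1, the smallest that 3 against 3 can give.

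Il33 (ENSMUSG00000024810, chromosome 19 from 29925114 to 29960718), a nuclear alarmin of barrier cells, was not called in any comparison. It was at 0.590, 0.576 and 0.567 FPKM in Sham, 0.557, 0.415 and 0.449 after H/R, and 0.793, 0.615 and 1.42 in EGR1OV. The third EGR1OV library, with 69 reads, was far above the other 2, with 38 and 29. The difference from Sham was 0.28 ± 0.136 on the log2 scale (SE, limma adjusted p = 0.125). Without EGR1OV replicate 2 it was 0.40, with an adjusted p of 0.0364, and Il33 was then called, whereas without EGR1OV replicate 3 it was 0.11, with an adjusted p of 0.373. Against H/R the difference was 0.38 (limma adjusted p = 0.0422), with a ratio of means of 1.99. On the log2(FPKM + 1) scale this was just under the fold threshold. In this comparison Il33 was called with a pseudocount of 0.1, with voom on the recovered reads and without EGR1OV replicate 2. Without EGR1OV replicate 3 the difference was 0.21 (adjusted p = 0.0923).

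The antagonist genes Il1rn and Il18bp and the processing genes Casp4 and Gsdmd rose in EGR1OV. Of 13 genes for processing or inhibition of these cytokines, 10 were tested. In EGR1OV 4 rose and none fell, beside 9.87% called higher and 6.51% lower over all genes tested. Casp4, however, passed the expression filter only through its EGR1OV values and had to differ. None of the 10 was called after H/R by limma (3 had an unadjusted p under 0.05, and voom on the recovered reads called 1). Il1rn, the receptor antagonist that blocks IL-1α and IL-1β, was at 0.972 ± 0.152 FPKM in Sham, 1.34 ± 0.176 after H/R and 8.27 ± 0.417 in EGR1OV, a rise against Sham of 2.23 on the log2 scale (limma adjusted p = 1.97e-08). Il18bp, which neutralises IL-18, went from 1.45 ± 0.176 to 9.72 ± 0.416 FPKM (adjusted p = 5.3e-09). Sigirr, an inhibitory receptor of the family, was at 1.23 ± 0.143 FPKM in Sham and 1.86 ± 0.057 in EGR1OV. This is a ratio of means of 1.51, but it was under the fold threshold on the log2(FPKM + 1) scale. The decoy receptor Il1r2 had at most 7 reads in any library and was not tested. The ratio of Il1rn to the sum of Il1a and Il1b was 1.01 ± 0.447 in Sham, 2.07 ± 1.03 after H/R and 0.611 ± 0.0735 in EGR1OV. The EGR1OV and Sham ranges did not separate (exact two-sided permutation p = 0.2).

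On the processing side, Casp4, the caspase that senses cytosolic lipopolysaccharide, rose from 0.458 ± 0.123 FPKM in Sham to 5.63 ± 0.82 in EGR1OV. Gsdmd, whose cleaved product forms the pore through which IL-1β leaves cells, rose from 1.56 ± 0.0908 to 5.95 ± 0.817 FPKM. Casp1, the caspase that matures IL-1β, was at 0.663 ± 0.366 in Sham and 0.549 ± 0.24 in EGR1OV and was not called. The inflammasome sensor Nlrp3 and adaptor Pycard were below 0.5 FPKM on average and were not tested. Capn1 and Capn2, calpain subunits of the kind that cleave pro-IL-1α, were at 20.04 ± 0.376 and 72.8 ± 1.83 FPKM in Sham and 24.0 ± 0.646 and 56.7 ± 2.23 in EGR1OV, and the sheddase genes Adam10 and Adam17 at 35.3 ± 0.585 and 10.1 ± 0.326 FPKM in Sham and 37.1 ± 1.61 and 10.97 ± 0.417 in EGR1OV. None of these 4 was called.

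Among the receptors of the IL-1 family, Il1rap rose in EGR1OV and Il1rl1 after H/R. Il1rap, the shared accessory chain, went from 1.64 ± 0.148 to 2.47 ± 0.0896 FPKM (0.39 on the log2 scale, limma adjusted p = 0.00127). Il1r1, the signalling receptor for IL-1, stood at 2.26 ± 0.11 in Sham and 1.67 ± 0.185 in EGR1OV. The ratio of means was 0.741, which was under the fold threshold on the log2(FPKM + 1) scale. Il1rl1, which codes for the IL-33 receptor ST2, was at 8.30, 8.15 and 7.22 FPKM in Sham, and rose after H/R to 10.3, 10.9 and 11.5 (0.42 on the log2 scale, adjusted p = 0.00307). In EGR1OV it was at 9.59, 10.3 and 10.3, above all Sham values but under the 1.3-fold threshold. Il1rl1 was the only one of the 10 receptor genes tested that was called after H/R, beside 1.6% called higher and 2.65% lower over all genes.

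**Figure D3:**
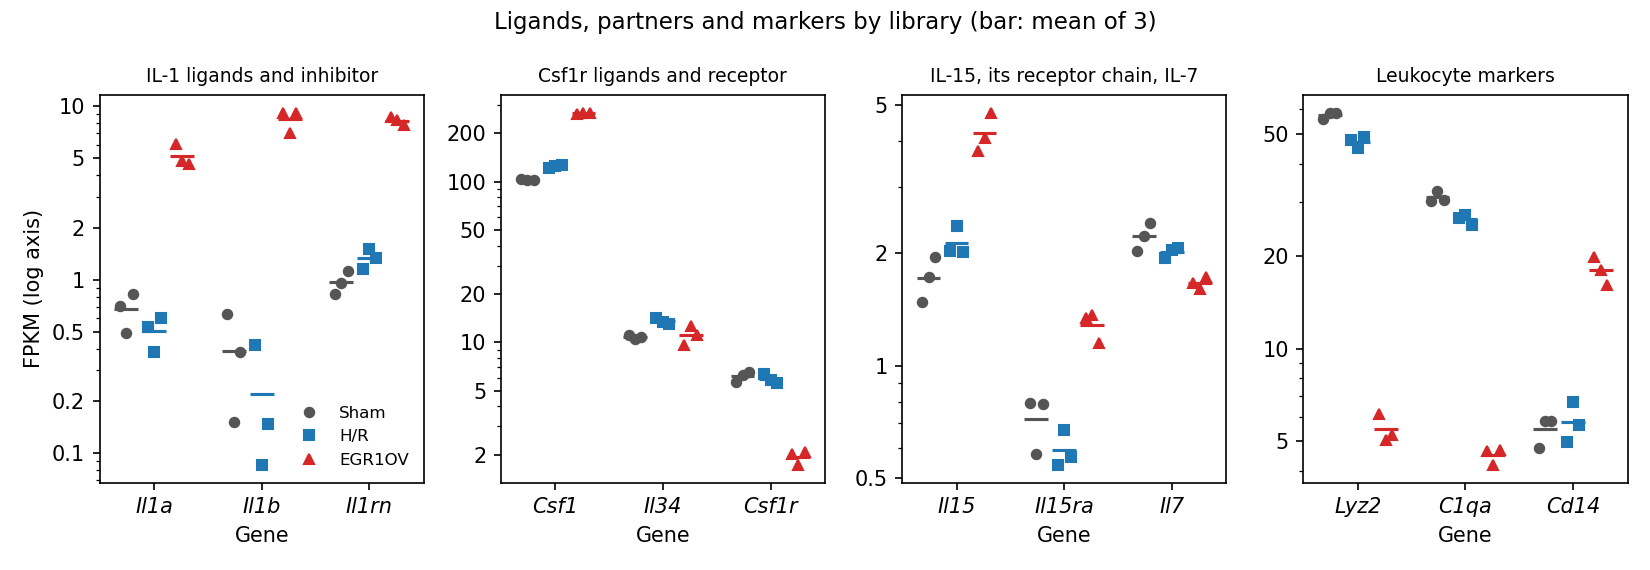
FPKM per library on log axes (each panel with its own range) for IL-1 ligands and their antagonist, ligands of Csf1r with the receptor, Il15 with Il15ra and Il7, and 3 leukocyte markers. In EGR1OV (triangles) Il1a, Il1b and Il1rn are higher together, Csf1 is higher and Csf1r lower, and Lyz2 and C1qa are lower while Cd14 is higher.

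Il6 and Lif belong to the same family but started from opposite ends of the range. Il6 (ENSMUSG00000025746, chromosome 5 from 30013114 to 30019981), the classical inducer of the acute-phase response, was at 0.0501, 0.0709 and 0.0748 FPKM in Sham, 0.0763, 0.0672 and 0.0464 after H/R, and 2.11, 1.59 and 1.98 in EGR1OV. Both low groups had 2 or 3 reads per library, so no fold between them is given. In EGR1OV there were 63 to 85 reads per library. Over each group as a whole this was 229 reads against 8, a depth-scaled ratio of 29.0 with an exact 95% interval of 14.5 to 67.9 that covers counting error only. On the log2(FPKM + 1) scale, which understates changes from so low a level, the rise was 1.44 ± 0.0868 (SE, limma adjusted p = 1.11e-06). This p is a description, because Il6 passed the expression filter only through its EGR1OV values and had to differ.

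Lif (ENSMUSG00000034394, chromosome 11 from 4257557 to 4272514), a cytokine that sustains stem cells and is made by injured epithelia, was at 37.5, 36.4 and 36.0 FPKM in Sham, 38.5, 39.1 and 43.6 after H/R, and 86.6, 86.3 and 82.3 in EGR1OV. The EGR1OV libraries lay far above the rest, and all H/R values were above all Sham values by a small margin. The rise in EGR1OV was 2.32-fold, 1.19 ± 0.0454 on the log2 scale (SE, limma adjusted p = 3.95e-08). After H/R the difference was 0.14 ± 0.0454 (adjusted p = 0.0868) and Lif was not called, with the third H/R library the highest of its group. The ratio of Lif to Il6 was 581 ± 145 in Sham and 45.6 ± 7.56 in EGR1OV, and the Sham value is imprecise because of the few Il6 reads.

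The shared receptor chain Il6st (gp130) hardly moved, at 19.7 ± 0.505, 20.5 ± 0.178 and 20.3 ± 0.246 FPKM in Sham, H/R and EGR1OV. Its partners were scarce. Il6ra was at 0.206 ± 0.0284 FPKM in Sham and 0.402 ± 0.0671 in EGR1OV, and Lifr at 0.404 ± 0.0274 and 0.462 ± 0.0357, and neither was tested because of low means. Il11, a relative that uses gp130 as well, was more abundant than Lif in Sham, at 43.9 ± 5.03 FPKM, and rose to 112 ± 7.06 in EGR1OV (1.34 on the log2 scale, adjusted p = 7.12e-07).

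Of the lymphocyte growth factors, Il15 rose in EGR1OV and Il7 was lower without being called. Il15 (ENSMUSG00000031712, chromosome 8 from 82331632 to 82403222), which sustains natural killer and memory T cells, was at 1.48, 1.73 and 1.96 FPKM in Sham, 2.02, 2.36 and 2.02 after H/R, and 3.76, 4.06 and 4.76 in EGR1OV. The 3 groups did not overlap. The rise in EGR1OV was 0.93 ± 0.0906 on the log2 scale (SE, limma adjusted p = 3.10e-05), 2.44-fold between means. After H/R the difference was 0.21 ± 0.0906, with an adjusted p of 0.176, and was not called.

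Il7 (ENSMUSG00000040329, chromosome 3 from 7569994 to 7613760), needed for lymphocyte development, was at 2.03, 2.23 and 2.41 FPKM in Sham, 1.94, 2.05 and 2.06 after H/R, and 1.67, 1.60 and 1.73 in EGR1OV. All EGR1OV values lay below all others. Its difference from Sham was -0.27 ± 0.0593 (SE, limma adjusted p = 0.00467), a ratio of means of 0.750, which was under the fold threshold on the log2(FPKM + 1) scale. With a pseudocount of 0.1 the difference was -0.39, with voom on the recovered reads it was -0.41, and Il7 was called lower in both. A gene on the opposite strand, Gm16685, overlaps Il7 and rose from 0.461 ± 0.154 to 2.52 ± 0.0452 FPKM. Whether counting used strand is not given in the sources used here, so reads of overlapping genes cannot be told apart.

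The ratio of Il15 to Il7 was 0.772 ± 0.0419 in Sham, 1.06 ± 0.0874 after H/R and 2.51 ± 0.25 in EGR1OV, without overlap between any groups (exact two-sided permutation p = 0.1 for each pair, the smallest possible). Il15ra, the chain that presents IL-15 to neighbouring cells, rose in EGR1OV from 0.721 ± 0.122 to 1.28 ± 0.117 FPKM (0.41 on the log2 scale, limma adjusted p = 0.00271). The receptor chains of responding lymphocytes, Il2rb, Il2rg and Il7r, were each below 0.3 FPKM on average in all groups and were not tested.

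Csf1 was the most abundant of the 10 genes and the most precisely measured. Csf1 (ENSMUSG00000014599, chromosome 3 from 107741048 to 107760469), the growth factor of macrophages, was at 103.25, 102.16 and 102.92 FPKM in Sham, 121, 124 and 128 after H/R, and 264, 268 and 266 in EGR1OV. No 2 groups overlapped, and the coefficient of variation in Sham was 0.545%. In EGR1OV it rose 2.59-fold, 1.36 ± 0.0234 on the log2 scale (SE, limma adjusted p = 1.40e-10), on 23164 to 23641 reads per library. After H/R it rose 1.21-fold (0.27 ± 0.0234, adjusted p = 0.000362), which is just past the 1.2-fold threshold. Without H/R replicate 3 the difference was 0.25, with an adjusted p of 0.00143, and it was then under the threshold.

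Il34 (ENSMUSG00000031750, chromosome 8 from 110741829 to 110805924), the other ligand of Csf1r, rose after H/R and was not called in EGR1OV against Sham. It was at 11.1, 10.5 and 10.8 FPKM in Sham, 14.3, 13.4 and 13.0 after H/R, and 9.59, 12.7 and 11.1 in EGR1OV. All H/R values were above all others, while the EGR1OV range enclosed that of Sham. The rise after H/R was 0.30 ± 0.0805 on the log2 scale (SE, limma adjusted p = 0.0425). This call was weak. The adjusted p was 0.109 with no filter, 0.0631 without the trend and above 0.05 when any 1 of 7 of the 9 libraries was left out (up to 0.113), and 0.00627 with voom on the recovered reads. For EGR1OV against Sham the difference was 0.03, with a 95% interval of -0.15 to 0.22. The direct difference of EGR1OV from H/R was -0.27 (adjusted p = 0.0198), under the 1.3-fold threshold. Gm15895, on the opposite strand within the span of Il34, was at 1.42 ± 0.363, 2.47 ± 0.4 and 2.34 ± 0.189 FPKM in Sham, H/R and EGR1OV.

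The balance of the pair differed in EGR1OV. The ratio of Csf1 to Il34 was 9.53 ± 0.203 in Sham, 9.21 ± 0.655 after H/R and 24.2 ± 3.21 in EGR1OV. The EGR1OV ratios did not overlap with the others (exact two-sided permutation p = 0.1, the smallest possible), and those of Sham and H/R did (p = 0.6).

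The receptor of both ligands went the other way. Csf1r was at 5.66, 6.23 and 6.57 FPKM in Sham, 6.32, 5.80 and 5.62 after H/R, and 2.01, 1.73 and 2.07 in EGR1OV, a fall of -1.29 ± 0.0676 on the log2 scale against Sham (SE, limma adjusted p = 4.21e-07). There were 16.8 ± 1.32 Csf1 transcripts per Csf1r transcript, per length, in Sham and 138 ± 14.6 in EGR1OV. Csf1r is also a defining marker of macrophages, and 10 of 12 leukocyte and macrophage markers tested fell in EGR1OV, Csf1r among them. Over all genes tested, 6.51% were called lower. Lyz2 went from 57.7 ± 1.62 to 5.46 ± 0.588 FPKM, C1qa from 31.1 ± 1.22 to 4.5 ± 0.279, and the pan-leukocyte marker Ptprc, too low to test, from 0.470 ± 0.0311 to 0.144 ± 0.0126. The lipopolysaccharide co-receptor Cd14 rose, from 5.46 ± 0.607 to 18.0 ± 1.87. After H/R, Lyz2 and Adgre1 fell and 10 of the 12 were not called, beside 2.65% of all genes called lower. In these bulk samples fewer macrophages and less RNA per macrophage cannot be told apart, and the part of macrophages in the level of any cytokine gene was not tested. Ptprz1, a further receptor described for IL-34, fell from 1.47 ± 0.107 to 0.760 ± 0.0763 FPKM.

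Csf2 (ENSMUSG00000018916, chromosome 11 from 54247271 to 54249667) codes for GM-CSF. Its values were 0.152, 0.574 and 0.303 FPKM in Sham, 0.463, 0.136 and 0.564 after H/R, and 2.78, 2.52 and 2.23 in EGR1OV. The low groups overlapped, with 2 to 8 reads per library, and EGR1OV, with 30 to 37 reads, stood above them. The rise was 1.40 ± 0.147 on the log2 scale (SE, limma adjusted p = 5.38e-05). Csf2 passed the expression filter only through its EGR1OV values and had to differ, so this p is a description. Depth-scaled reads gave 7.23-fold, with an exact 95% interval of 4.11 to 13.7 for counting error. Gm12223 on the opposite strand overlaps Csf2 and rose as well, from 0.975 ± 0.151 to 2.17 ± 0.581 FPKM. Among the receptor chains of GM-CSF, the signalling chain Csf2rb was called lower. Csf2rb fell from 1.88 ± 0.381 to 0.633 ± 0.189 FPKM and its close copy Csf2rb2 from 1.14 ± 0.176 to 0.409 ± 0.0341. Reads can be split between these near-identical genes. Csf2ra, the binding chain, was at 7.01 ± 0.598 and 5.88 ± 0.551 FPKM and was not called. Both beta chains are carried by myeloid cells. Of the 12 leukocyte and macrophage markers tested, 10 fell in EGR1OV and Cd14 rose. Their relation to the fall of the beta chains was not tested.

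Over the 15 receptor genes, 10 were tested. In EGR1OV against Sham 2 rose and 4 fell, with a median change of -0.25 on the log2 scale against 0.02 over all genes. For comparison with this list and the next, 9.87% of all genes tested were called higher and 6.51% lower. Among other interleukins and growth factors of the same families, 34 of 41 listed genes were in the table and 12 were tested, of which 4 rose in EGR1OV (Il11, Il18, Il12b and Csf3) and 1 fell (Il23a). Csf3, which codes for the granulocyte factor G-CSF, rose from 11.5 ± 0.507 to 24.6 ± 0.804 FPKM. Il18, an IL-1 relative made by epithelia, rose from 1.36 ± 0.316 to 3.97 ± 0.535. Il12b, the subunit shared by IL-12 and IL-23, was listed at 0 in all 3 Sham libraries and at 3.03, 1.93 and 1.57 FPKM in EGR1OV. It passed the expression filter only through EGR1OV and had to differ. After H/R only Il23a of the 12 was called, and it was higher, beside 1.6% called higher and 2.65% lower over all genes.

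Of 16 genes for signalling below these receptors, 15 were tested. In EGR1OV 7 rose and none fell, beside 9.87% called higher and 6.51% lower over all genes tested. After H/R limma called none, with 4 at an unadjusted p under 0.05 and 1 called by voom. The list was chosen with earlier results of these data known, so these counts are a description. The 7, named after their values were seen, were the adaptor Myd88, the kinases Jak2, Jak3 and Tyk2, and the feedback inhibitors Socs1, Socs3 and Cish. Myd88 went from 3.90 ± 0.237 to 9.18 ± 0.789 FPKM and Socs1 from 2.72 ± 0.608 to 7.30 ± 0.631. Stat3, the main factor below gp130, was at 12.4 ± 0.53 and 14.8 ± 0.277 FPKM, under the fold threshold.

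Apart from Il1a and Il1b themselves, no nearest protein-coding neighbour of a riser was called in EGR1OV against Sham. Some of these neighbours were too low to test. Beside Il1a and Il1b, Ckap2l, 2.4 kb from Il1a, was at 7.34 ± 0.157 FPKM in Sham and 6.65 ± 0.424 in EGR1OV and was not called. Around Il6, Tyms was at 2.78 ± 0.159 and 2.96 ± 0.261 FPKM. Dnajb6 was at 19.0 ± 0.0787 and 24.7 ± 0.493, under the fold threshold on the log2(FPKM + 1) scale. Ahcyl1, 44.5 kb from Csf1, was at 25.4 ± 0.34 FPKM in Sham and 25.5 ± 0.444 in EGR1OV. The cytokine genes nearest to Lif and Csf2, Osm and Il3, were below 0.5 FPKM on average in every group. Next to Il34, itself not called in EGR1OV against Sham, Mtss1l fell from 5.76 ± 0.204 to 3.63 ± 0.112 FPKM and Sf3b3 was not called.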

How the data were processed

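RNA-Seq was done on 9 libraries of primary renal tubular epithelial cells, and titles gave the group and number of each. The authors deposited FPKM values in 1 table, with replicates kept as separate columns. The submitters' processing notes name HISAT2 (version 2.1.0), Bowtie2 (version 2.2.3), TopHat2 and the build mm9, whereas 94.6% of gene positions in the table equal those of GENCODE M21 (GRCm38), so coordinates are as the table gives them. The counter and annotation are not given in the sources used here.

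The 10 genes and all gene lists were chosen with earlier results of these data known. FPKM values were tested as log2(FPKM + 1) in a single limma fit of all 9 libraries (two-sided, eBayes with trend, limma 3.58.1 under R 4.3.3), on the 13985 genes that averaged 0.5 FPKM or more, with Benjamini-Hochberg adjustment over all of them. Every adjusted p is from this test unless another is named. Calls needed an adjusted p under 0.05 and 1.3-fold for EGR1OV, or 1.2-fold where H/R was set against Sham. The numbers of both follow the study, except that the comparison of EGR1OV with H/R, and so its threshold, was added here. The study names neither the model of its RNA-Seq test nor an added 1. On the log2(FPKM + 1) scale the fold thresholds are stricter for genes of low FPKM. Fold changes of means and ratios are of FPKM. Ratios were tested by exact permutation (two-sided), whose p cannot be under 0.1 with 3 against 3.

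With exon lengths from GENCODE M21, low values gave whole reads. Of 162952 values of 1 to 1000 reads, 94.0% were whole within 0.02 reads. Intervals (95%, exact) and the floor of 3 reads stand for counting error alone, because no molecular identifiers separate PCR copies. On simulated libraries of 13576 genes, for EGR1OV against Sham, 163 of 197 changed genes (82.7%) were recovered in the right direction, beside 7 false calls. Changes were put only into genes with more Sham reads than Il1b, Il6 and Csf2 have. They were also larger than 1.3-fold. The rate thus does not cover genes of so few reads or changes near the 1.2-fold and 1.3-fold thresholds. The simulated variance was a fixed multiple of the mean count at every level. Genes that vary more between libraries are not covered either.

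Genes named beside the 10 were taken from those of the receptor, processing and other-ligand lists with a call or with at least 5 FPKM in a group, the nearest protein-coding neighbours, the gene most alike to each, marker genes and Egr1. Some list genes outside that rule, such as scarce receptor chains, were named after their values were seen. Promoters are from RefSeq on GRCm38.p6. In 26 rows a symbol turned into a date was restored from its identifier. Same-numbered libraries of different groups did not deviate together (correlations of deviations from -0.02 to 0.06 over 9 pairs), so the numbers were not taken to pair samples. Alternatives were the replicate block, a pseudocount of 0.1, a filter at 5 FPKM or none, quantile normalization or median-ratio scaling, voom on recovered reads, no trend, fits of only 2 groups, other fold thresholds and leaving out each library. Tables and figures were made with Python 3.11.15 (numpy 2.4.6, pandas 2.3.3, scipy 1.17.1, matplotlib 3.10.9).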

Additional observations from a re-analysis of the deposited data

Results flagged for a closer look

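Il23a, which codes for the p19 subunit of IL-23, moved in opposite directions in the treated groups. It was at 7.33, 6.99 and 6.09 FPKM in Sham, 9.16, 11.1 and 10.04 after H/R, and 4.85, 4.03 and 3.83 in EGR1OV. No groups overlapped. It rose after H/R by 0.51 on the log2(FPKM + 1) scale (limma adjusted p = 0.0105) and fell in EGR1OV (-0.58, adjusted p = 0.00076). The direct difference of EGR1OV from H/R was -1.08 ± 0.0922 (SE, limma adjusted p = 1.11e-05). Il12b, whose product pairs with p19, was at 0 or 1 read in every Sham and H/R library and at 1.57 to 3.03 FPKM in EGR1OV. Why Il23a differed was not tested.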

How the results depend on the processing

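The count of called genes in EGR1OV against Sham was 7 and ran from 7 to 8 over the libraries left out. It was 2 with a mean of at least 5 FPKM, where only 3 of the genes were tested, and so was that of EGR1OV against H/R. In H/R against Sham the count of 2 fell to 1 with no filter, with the replicate block and without the trend, to 0 at 2-fold, and ran from 0 to 2 over the libraries left out, with 0 without H/R replicate 3. Under the replicate block Il34 after H/R had an adjusted p of 0.0771, and this block changed no other call. Reversals were seen only for differences near 0 that were not called. That of Il34 in EGR1OV was -0.0746 with quantile normalization and -0.0577 to 0.127 over the libraries left out. That of Il6 after H/R was 0.0564 with quantile normalization and -0.013 to 0.00885 over the libraries left out, and that of Csf2 after H/R was -0.0584 to 0.184. The cause was not tested. With quantile normalization Il34 was called lower in EGR1OV against H/R (-0.40, adjusted p = 0.00271). Few reads limit Il6, Csf2 and Il1b in Sham and H/R.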

Other observations

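The summed level of the 10 genes lay between 155 and 157 FPKM in Sham libraries, between 180 and 190 after H/R and between 385 and 390 in EGR1OV. Csf1 and Lif together made up 89.3% ± 0.278, 89.5% ± 0.671 and 90.7% ± 0.322 of it (SD, n = 3). The share of Il34 was 6.90% ± 0.127 in Sham and 2.87% ± 0.388 in EGR1OV, and that of Il1b was 0.249% ± 0.154 and 2.19% ± 0.328.

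For each gene, the protein-coding gene most alike over the 9 libraries was taken among 7169 candidates with a mean of at least 5 FPKM. The measure was Pearson's r of log2(FPKM + 1), a description only, since EGR1OV libraries stand apart from the other 6 in most of these genes. The nearest to Csf1 was Spsb1 (r = 0.999), at 16.4 ± 0.199 FPKM in Sham, 18.1 ± 0.207 after H/R and 25.3 ± 0.397 in EGR1OV. For Lif it was Adgra1 (r = 0.999), at 7.74 ± 0.43, 8.64 ± 0.487 and 26.2 ± 0.971 FPKM. Tapbpl, a relative of the antigen-loading protein tapasin, was nearest to Il6 (r = 0.997), at 6.94 ± 0.178, 7.00 ± 0.366 and 20.7 ± 1.09 FPKM. The proteasome subunit Psma6 was nearest to Il1b (r = 0.996), Rpl7l1 to Il1a (r = 0.997), Ctsw to Il15 (r = 0.992), Prpf38a to Csf2 (r = 0.990) and Hadh to Il7 (r = 0.986). The likeness was lower for Il34 with Kirrel (r = 0.937) and for Il33 with Psmd1 (r = 0.935).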
